A study of Saccharomyces cerevisiae with 36 samples.

Results

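The genes of peroxisome assembly and fatty acid oxidation were followed in budding yeast as the cells were moved from rich to minimal medium without amino acids. The set held 41 genes: 24 peroxins, 15 genes of fatty acid oxidation, activation and transport, and the 2 transcriptional regulators PIP2 and OAF1. They were chosen by gene symbol, and each was read by a single probe set among the 5763 tested, which name 5449 genes. All 3 strains were MATa haploids of the W303a background with a deletion of the protease gene BAR1, so that the WT carried this deletion as well, and all had auxotrophic alleles of URA3, LEU2, HIS3, TRP1 and ADE2 and the can1-100 allele. The eco1-W216G strain had a point mutation in ECO1, the acetyltransferase that establishes sister chromatid cohesion, and the scc2-D730V strain had one in SCC2, which encodes a subunit of the cohesin loader. Each mutant allele stood at its own locus beside a hygromycin marker. Cultures grown in rich medium with glucose (YPD+CSM, 0 min) were moved to minimal medium without amino acids and sampled 15, 35 and 55 min later, so that the loss of amino acids, the change from rich to minimal medium and the transfer itself cannot be told apart. Each of the 12 groups of strain and time held 3 arrays, from 3 independent cultures of each strain, and the same WT arrays served in the comparisons of both mutants.

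Peroxisomes are organelles bounded by a membrane, and in yeast they are the only place where fatty acids are broken down by β-oxidation. Peroxins build them: import receptors bind enzymes in the cytosol, a docking complex and a ring of ubiquitin ligases at the membrane let the cargo in and the receptors out, and further peroxins set the number and size of the organelles. Glucose represses many of the oxidation genes, and fatty acids induce them through Oaf1 and Pip2, which bind DNA as a pair.

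Levels were log2 intensities after RMA, so that a difference of 1 is a factor of 2. A level was not compared between genes, except with the deleted BAR1 as a rough mark of the floor. A gene was called changed at an adjusted p under 0.05 in a limma model of all 36 arrays, with the Benjamini-Hochberg adjustment over the 5763 probe sets. Array medians lay between 10.95 and 11.14. The probe set of the deleted BAR1 read between 4.44 and 4.89 over the 36 arrays. The lowest group means of PEX18, POX1, POT1 and CRC1, all at 0 min, lay 1.04, 1.25, 1.46 and 1.97 above the highest of these readings. Fold changes from 0 min, and likeness of strains there, are therefore less certain for these genes. The probe set of ECO1 read 8.43 ± 0.37 in WT and 5.15 ± 0.10 in eco1-W216G at 0 min (mean ± SD, n = 3). The mutant value was thus close to the BAR1 readings. At 15, 35 and 55 min the ECO1 means were 6.23, 6.45 and 6.69 in eco1-W216G, against 8.55, 7.92 and 7.72 in WT. Why ECO1 read low in this strain was not tested. Across all probe sets the median ratio of eco1-W216G to WT lay between -0.09 and -0.08 at the 4 times.

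After the move to minimal medium most of these genes were higher in WT. At 15 min 33 of 41 were higher than at 0 min and 2 were lower, where 73.4% of all probe sets were called, 37% higher and 36.4% lower. At 35 min 35 had risen and 2 had fallen, beside 72.6% of all probe sets called (36.7% and 35.9%). At 55 min 33 had risen and 2 had fallen, beside 71.2% (36% and 35.2%). The oxidation genes moved as a block, since 15 of 15 were higher at each of the 3 times, with a median log2 change of 1.78 at 15 min, 1.94 at 35 min and 1.73 at 55 min. Of the 24 peroxins 16, 18 and 17 were higher at these times and 2 were lower, and their medians were 0.72, 0.83 and 0.91. The median over all probe sets was 0.02 at each time. In WT 10 of the 15 oxidation genes had their highest group mean at 35 min and 4 at 15 min, while 10 of the 24 peroxins peaked at 15 min and 9 at 55 min.

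**Figure D1:**
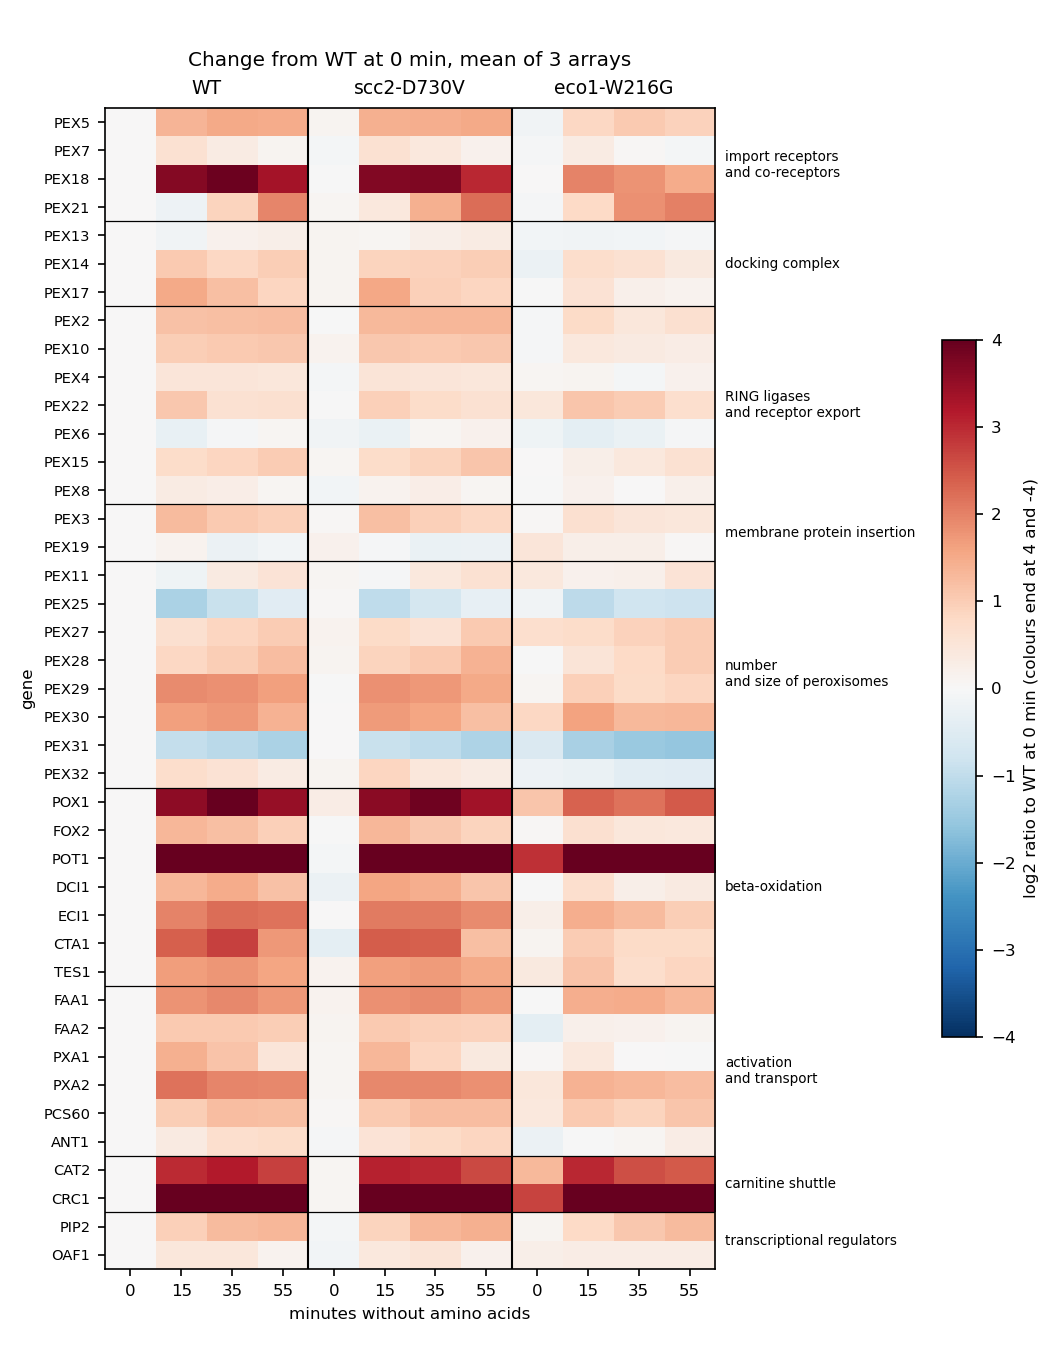
Each row is 1 of the 41 genes, ordered by role, and each column is a strain and time in min. Colour gives the mean log2 intensity of 3 arrays minus the WT mean at 0 min, and colours end at 4 and -4. In eco1-W216G POT1, CRC1, CAT2 and POX1 are already raised at 0 min, and PEX25 and PEX31 are blue after 0 min in all 3 strains.

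The carnitine shuttle gave the largest rise. CRC1 (YOR100C, chromosome XV, 513295 to 514278 in R64), the carrier that takes acetylcarnitine into mitochondria, read 6.92, 7.09 and 6.57 on the WT arrays at 0 min and 12.76, 12.85 and 12.85 at 15 min. The ranges lay far apart, and the rise was 62.2-fold at 15 min, 83.9-fold at 35 min and 81.7-fold at 55 min (adjusted p = 2.6e-21, 2.66e-22 and 3.52e-22 by limma). CAT2, the carnitine acetyltransferase that loads acetyl units onto carnitine, rose 7.85-fold at 15 min (log2 change 2.97 ± 0.21 SE, adjusted p = 7.12e-13). It read 9.05, 9.54 and 9.73 at 0 min and 12.31, 12.44 and 12.48 at 15 min.

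Within β-oxidation itself, 7 of 7 genes rose in WT at every time. POT1 (YIL160C, chromosome IX, 40191 to 41444), the thiolase of the last step, read 6.47, 6.79 and 6.08 at 0 min and 11.58, 11.09 and 11.53 at 15 min, a 31-fold rise (log2 change 4.95 ± 0.28 SE). It stood at 11.78 ± 0.21 at 35 min and at 11.03 ± 0.21 at 55 min (SD, n = 3), so its highest mean came at 35 min. POX1, the acyl-CoA oxidase of the first step, read 6.08, 6.38 and 5.98 at 0 min and 9.45, 9.83 and 9.92 at 15 min, a 12-fold rise. CTA1, the peroxisomal catalase that removes the hydrogen peroxide made by that oxidase, rose 5.25-fold at 15 min, 6.59-fold at 35 min and 3.35-fold at 55 min. FOX2, which carries out the middle steps, changed less, by 1.34 on the log2 scale at 15 min and 0.95 at 55 min. The isomerase ECI1, needed for unsaturated fatty acids, rose 3.93-fold at 15 min and its homologue DCI1 2.5-fold, and the thioesterase TES1 rose by 1.68 on the log2 scale.

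The genes that activate and carry the substrates rose too, 6 of 6 at each time. PXA2, a subunit of the ABC transporter that brings fatty acids into peroxisomes, rose by 2.18, 1.96 and 1.91 on the log2 scale at 15, 35 and 55 min. The rise of its partner PXA1 shrank over the same times, from 1.41 through 1.16 to 0.49. The acyl-CoA synthetases FAA1 and FAA2 were higher by 1.78 and 1.05 at 15 min. ANT1, which supplies peroxisomes with ATP, had the smallest change of the 6 at 15 min, 0.37.

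Among peroxins the import co-receptors behaved unlike each other. Pex18 and Pex21 are related proteins that help the receptor Pex7 to bring in cargo with the PTS2 signal, of which the thiolase Pot1 is the best known in yeast. PEX18 (YHR160C, chromosome VIII, 419221 to 420072) read 5.94, 6.25 and 5.62 on the WT arrays at 0 min and 9.81, 9.41 and 9.60 at 15 min, the largest rise of any peroxin (12.7-fold, adjusted p = 3.59e-12 by limma). PEX21 (YGR239C, chromosome VII, 969187 to 970053) stood at 10.00, 9.66 and 10.45 at 0 min and at 9.82, 9.65 and 10.07 at 15 min, where the 2 sets of arrays overlapped (adjusted p = 0.666). Its rise came late, with 1.94 ± 0.39 (SE) on the log2 scale at 55 min (adjusted p = 7.26e-05). PEX7 rose by 0.61 and PEX5, the receptor for the commoner PTS1 signal, by 1.34 at 15 min.

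Genes that set the number and size of peroxisomes also split. PEX25 and PEX31 were the 2 members that fell in WT. PEX25, a membrane protein of the Pex11 family, read 12.20, 12.21 and 11.86 at 0 min and 10.93, 10.65 and 10.88 at 15 min, a 2.41-fold fall, and had come back to 11.64 ± 0.26 (SD, n = 3) at 55 min. Its relative PEX27 rose at all 3 times, by 0.65, 0.86 and 1.01, and PEX11 rose at 35 and 55 min, by 0.37 and 0.55. PEX31 went down from 10.60, 10.93 and 11.19 at 0 min to 10.00, 9.97 and 9.92 at 15 min (log2 change -0.94 ± 0.17 SE) and to 9.64 ± 0.06 at 55 min. Its relatives PEX30 and PEX32 rose, by 1.65 and 0.70 at 15 min, and so did PEX29, by 1.90. Each of these differences of direction held at every time from 35 min on.

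The remaining peroxins differed in how far they moved. At 15 min the docking genes PEX14 and PEX17 rose by 1.04 and 1.50, while PEX13 of the same complex was not called (-0.15). The RING ligase genes PEX2 and PEX10 rose by 1.18 and 1.00, PEX3, which receives membrane proteins, by 1.28, and PEX28 by 0.84. PEX22, which anchors the ubiquitin-conjugating enzyme of receptor export, rose by 1.07 and PEX4, that enzyme, by 0.49. PEX6, PEX8, PEX13 and PEX19 were not called at any time in WT.

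Both regulators rose in WT at 15 min. PIP2 read 10.11, 10.24 and 10.12 at 0 min and 10.83, 11.15 and 11.34 at 15 min, with no overlap (1.93-fold), and was 2.53-fold higher at 55 min. OAF1 read 10.80, 11.12 and 10.72 at 0 min and 11.15, 11.40 and 11.46 at 15 min, a 1.37-fold rise (adjusted p = 0.00919 by limma) that lost its call without WT replicate 3, and at 55 min it was not called (log2 change 0.15).

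In rich medium a few oxidation genes were already high in eco1-W216G. At 0 min 8 of the 41 genes were higher than in WT and 1 was lower, where 25.5% of all probe sets were called, 13.7% higher and 11.9% lower. The 8 were 5 of the 15 oxidation genes and 3 of the 24 peroxins, and the medians of these classes were 0.24 and -0.02, beside -0.08 for all probe sets. POT1 read 9.52, 8.79 and 9.77 in eco1-W216G, where WT read 6.47, 6.79 and 6.08, so that the lowest mutant array was above the highest WT array, and the difference was 7.53-fold (log2 ratio 2.91 ± 0.28 SE, adjusted p = 6.63e-09 by limma). CRC1 read 9.78, 9.27 and 9.62 in the mutant, where WT read 6.92, 7.09 and 6.57, a 6.49-fold difference (adjusted p = 9.13e-13). These were the largest differences of the 41 genes at 0 min, and both mutant levels were below the WT levels reached at 15 min.

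Smaller rises at 0 min concerned CAT2 and POX1. CAT2 read 10.61, 10.76 and 10.85 in eco1-W216G and 9.05, 9.54 and 9.73 in WT, a 2.46-fold difference without overlap. POX1 read 7.37, 6.83 and 7.57 and 6.08, 6.38 and 5.98, a 2.16-fold difference (adjusted p = 0.00184 by limma). PCS60, a peroxisomal CoA synthetase, was higher by 0.43 on the log2 scale, a call lost on leaving out 4 of the 9 cultures in turn. The 9 include the 3 cultures of scc2-D730V, which bear on a call between eco1-W216G and WT only through the estimate of spread. The other genes of β-oxidation were not called at 0 min: ratios were 0.06 for FOX2, -0.03 for DCI1, 0.24 for ECI1, 0.12 for CTA1 and 0.38 for TES1.

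Among peroxins in rich medium the relatives PEX30 and PEX31 differed from WT in opposite directions. PEX30 read 10.26, 10.00 and 10.62 in eco1-W216G and 9.35, 9.30 and 9.71 in WT, with the groups apart (log2 ratio 0.84 ± 0.18 SE, adjusted p = 0.000813 by limma). PEX31 read 10.21, 10.80 and 9.95 in the mutant and 10.60, 10.93 and 11.19 in WT, and the groups overlapped (log2 ratio -0.58, adjusted p = 0.0113). The PEX31 call was lost without WT replicate 2 or 3 and without eco1-W216G replicate 1 or 3. PEX27 was higher by 0.66, and PEX11, which read 13.19, 12.87 and 12.98 against 12.63, 12.74 and 12.42, by 0.42, a call lost without WT replicate 1 or 3 and without eco1-W216G replicate 1 or 3. No import receptor was called at 0 min: PEX18 had a ratio of 0.03, PEX21 of -0.04, PEX5 of -0.14 and PEX7 of -0.03.

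**Figure D2:**
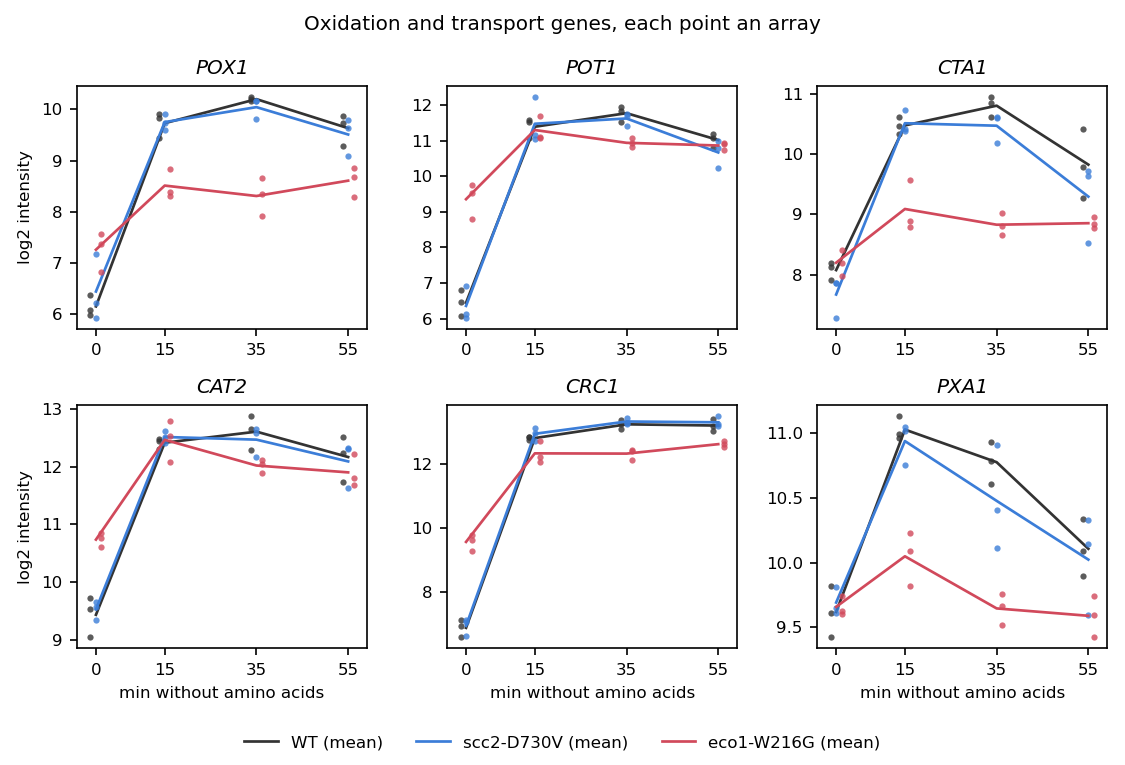
Log2 intensity (vertical) against minutes without amino acids (horizontal) for 6 genes of oxidation and transport, with a point for each array and a line through the mean of 3 arrays of each strain. At 0 min eco1-W216G starts above WT for POX1, POT1, CAT2 and CRC1 and level with it for CTA1 and PXA1, and at 35 min it is below WT for all 6.

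After the move more of the genes were called below WT than above it. Of the 8 that had been higher at 0 min, 2 were called lower at 15 min. At 15 min the mutant was below WT for 20 of the 41 genes and above it for 2, where 41.5% of all probe sets were called, 22.7% lower and 18.8% higher. At 35 min 26 were lower and 1 was higher, beside 46.5% of all probe sets called (26.6% and 19.9%). At 55 min 21 were lower and 0 higher, beside 37.9% (21% and 16.8%). The oxidation genes gave 11, 14 and 11 lower of 15 at the 3 times, with medians of -0.53, -0.86 and -0.58, and the peroxins gave 9, 12 and 10 lower of 24, with medians of -0.32, -0.36 and -0.27. The medians of all probe sets were -0.08, -0.09 and -0.09. At 35 min FAA1 alone of the oxidation genes was not called (log2 ratio -0.45, adjusted p = 0.124 by limma). Calls of single genes depended on single cultures: of the 22, 27 and 21 genes called at these times, 14, 18 and 13 kept their call whichever of the 9 cultures was left out.

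**Figure D3:**
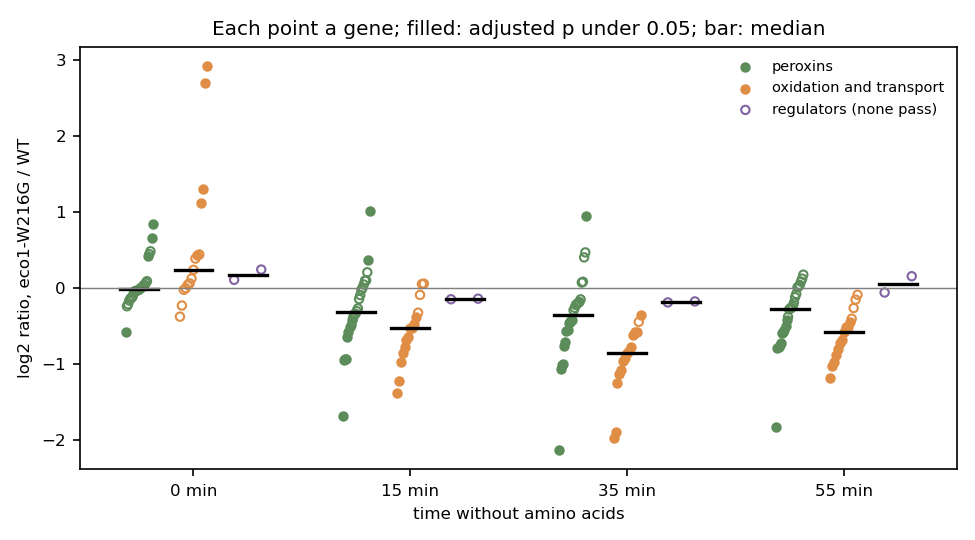
Log2 ratio of eco1-W216G to WT (vertical) at 4 times (horizontal) for peroxins, oxidation and transport genes and regulators, each point a gene, filled where the adjusted p was under 0.05, with a bar at the class median. The oxidation median goes from 0.24 at 0 min to -0.86 at 35 min and the peroxin median from -0.02 to -0.36.

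POX1 changed sides most clearly. In eco1-W216G it read 8.30, 8.84 and 8.39 at 15 min, where WT read 9.45, 9.83 and 9.92, and 8.66, 7.92 and 8.34 at 35 min, where WT read 10.20, 10.24 and 10.16. The groups were apart at both times, and POX1, which had been 2.16-fold higher at 0 min, was 2.33-fold lower at 15 min, 3.72-fold lower at 35 min and 2.04-fold lower at 55 min (adjusted p = 0.000399, 1.61e-06 and 0.00249 by limma). Of the 41 genes 6 were called higher at one time and lower at another, and these were PEX30, POX1, POT1, PCS60, CAT2 and CRC1, beside 6.99% of all probe sets. POX1 and CRC1 kept a call in each direction whichever of the 9 cultures was left out. The lower call at 35 min was lost without 5 of the 9 in turn for PEX30, 6 for PCS60, 4 for CAT2 and 2 for POT1. All of these were cultures of WT or eco1-W216G, except scc2-D730V replicate 3 for PCS60.

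POT1, CAT2 and CRC1 came closer to WT. POT1 read 11.12, 11.70 and 11.09 at 15 min in eco1-W216G, within reach of the WT values of 11.58, 11.09 and 11.53 (log2 ratio -0.09, adjusted p = 0.82 by limma). At 35 min it read 11.07, 10.83 and 10.93 where WT read 11.95, 11.54 and 11.85, a 1.78-fold deficit whose call was lost without WT replicate 1 or 3. CRC1 was lower by 0.48, 0.92 and 0.58 on the log2 scale at the 3 times, and its call at 15 min was lost without WT replicate 2 or 3 and without eco1-W216G replicate 1 or 3. CAT2 was called lower only at 35 min (log2 ratio -0.59), a call lost without WT replicate 2 or 3 and without eco1-W216G replicate 1 or 2.

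CTA1 and PXA1 were equal to WT within the spread at 0 min and lower afterwards. CTA1 read 8.80, 9.57 and 8.90 in eco1-W216G at 15 min and 10.62, 10.33 and 10.47 in WT, and 9.03, 8.66 and 8.81 against 10.62, 10.84 and 10.94 at 35 min. The catalase gene was thus 2.61-fold lower at 15 min, 3.91-fold lower at 35 min and 1.96-fold lower at 55 min (adjusted p = 0.000124, 1.18e-06 and 0.00446 by limma), and the last call was lost without WT replicate 2. PXA1 read 9.82, 10.23 and 10.09 at 15 min against 11.13, 10.99 and 10.96, a 1.97-fold deficit. Within eco1-W216G PXA1 was not called at any time after the move, with log2 changes of 0.39, -0.01 and -0.07.

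The isomerase genes and the CoA synthetases followed at different times. DCI1 read 8.99, 9.13 and 9.21 at 35 min in eco1-W216G and 10.52, 10.06 and 10.52 in WT, a 2.38-fold deficit. ECI1 was furthest from WT at 55 min, with 10.03, 10.26 and 10.07 against 11.47, 11.22 and 11.22, a 2.27-fold deficit (adjusted p = 7.27e-05 by limma). FAA2, the peroxisomal acyl-CoA synthetase, was lower by 0.86, 0.86 and 0.88 at the 3 times, while FAA1, the main synthetase outside peroxisomes, was not called at any (-0.33, -0.45 and -0.41). FOX2 was lower by 0.69, 0.77 and 0.51, and TES1 by 0.53, 1.08 and 0.73. The TES1 call was lost on leaving out 6 of the 9 cultures in turn at 15 min and 2 at 55 min. That of FOX2 at 55 min was lost without 2.

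The import co-receptors were on opposite sides of WT. PEX18 read 7.87, 8.55 and 7.36 in eco1-W216G at 15 min, where WT read 9.81, 9.41 and 9.60, and 7.37, 8.20 and 7.60 at 35 min, where WT read 9.80, 9.76 and 10.01. No arrays overlapped, and PEX18 was 3.2-fold lower at 15 min, 4.38-fold at 35 min and 3.57-fold at 55 min (adjusted p = 3.4e-05, 1.38e-06 and 1.59e-05 by limma), the largest deficit among the 41 genes at each of these times. PEX21 read 11.20, 10.41 and 10.94 in the mutant at 15 min against 9.82, 9.65 and 10.07, and 11.51, 12.28 and 11.82 at 35 min against 11.36, 10.27 and 11.15. It was 2.01-fold and 1.93-fold higher (adjusted p = 0.0392 and 0.0478), and each call was lost on leaving out 6 of the 9 cultures in turn. At 55 min PEX21 was 11.97 ± 0.62 in WT and 12.06 ± 0.10 in eco1-W216G (SD, n = 3), and the groups overlapped. The receptor PEX5 was lower by 0.51, 0.46 and 0.56 at the 3 times, and PEX7 was not called at any.

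Other peroxins lower in eco1-W216G had several roles. PEX6, PEX7, PEX8, PEX13, PEX19, PEX22, PEX25 and PEX28 were not called against WT at any of the 4 times. How many of all probe sets share this was not counted. PEX32 was lower by 0.95, 1.00 and 0.78 at the 3 times, PEX29 by 0.94, 1.07 and 0.76 and the docking gene PEX17 by 0.94, 1.01 and 0.73. PEX10, PEX2, PEX3 and PEX15, which holds the export motor at the membrane, were called lower at all 3 times, with PEX10 at -0.58, -0.71 and -0.79. The calls of PEX2 at 15 min, PEX15 at 35 and 55 min and PEX3 at 55 min were lost without 2, 2, 3 and 1 of the 9 cultures in turn. PEX11 was the only peroxin besides PEX21 that was higher at 15 min, with 12.83, 12.86 and 12.65 against 12.31, 12.53 and 12.41 (log2 ratio 0.36, adjusted p = 0.04 by limma), a call lost on leaving out 5 of the 9 cultures in turn. PEX30 read 11.07 ± 0.09 at 15 min in eco1-W216G and 11.10 ± 0.11 in WT (SD, n = 3), and at 35 min it was lower by 0.45. PEX25 was not called between the strains at any time, with ratios of 0.20, 0.08 and -0.38 after the move.

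**Figure D4:**
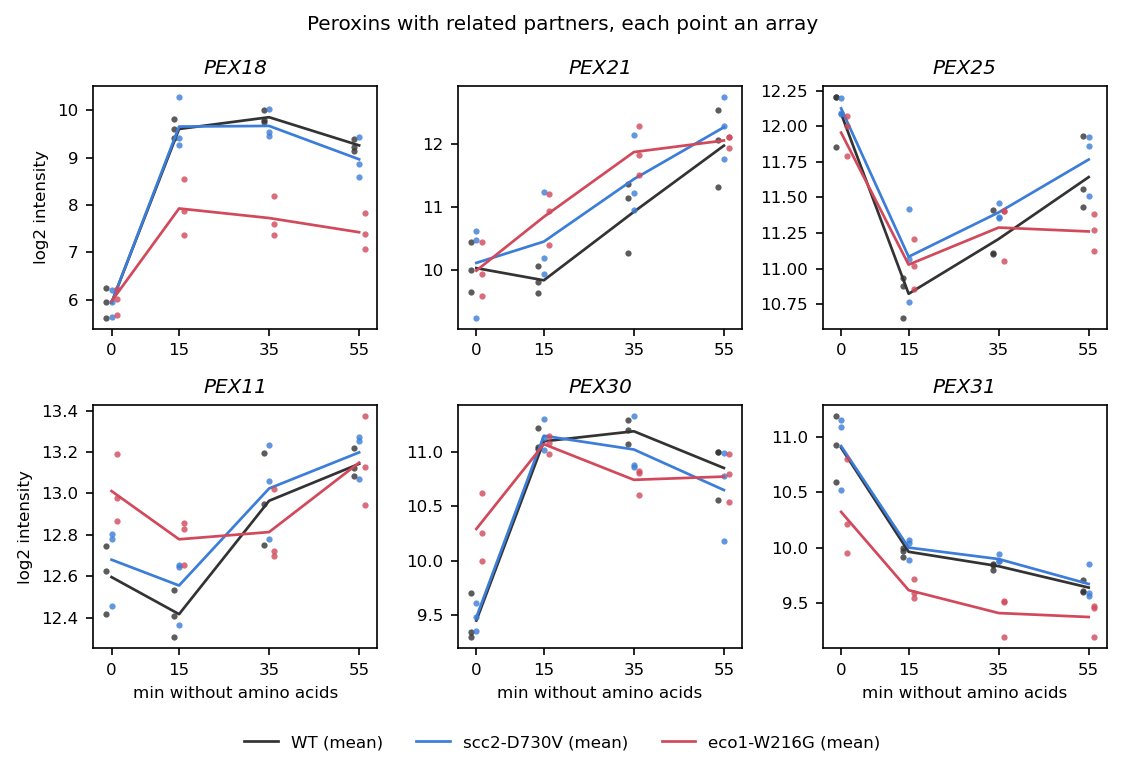
Log2 intensity (vertical) against minutes without amino acids (horizontal) for 6 peroxins with related partners, with a point for each array and a line through the mean of 3 arrays of each strain. After 0 min PEX18 is lower in eco1-W216G than in WT, at 15 and 35 min PEX21 is higher, and PEX30 and PEX31 move apart in all 3 strains.

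PIP2 and OAF1 were not called between eco1-W216G and WT at any time. PIP2 read 10.79, 11.04 and 11.03 at 15 min and 11.12, 11.21 and 11.34 at 35 min in the mutant. WT read 10.83, 11.15 and 11.34, and 11.39, 11.46 and 11.40. The ratios were -0.15 and -0.19 (adjusted p = 0.41 and 0.275 by limma). OAF1 read 10.94, 11.36 and 11.28 at 15 min in the mutant against 11.15, 11.40 and 11.46, and the ratio was -0.14 (adjusted p = 0.476). Between 0 and 15 min in eco1-W216G PIP2 rose by 0.69, and OAF1 was not called (0.07).

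Each mutant was also compared with its own 0 min. In eco1-W216G 26, 24 and 25 of the 41 genes rose at 15, 35 and 55 min and 2 fell at each, where 50.1%, 49.7% and 49.2% of all probe sets were called: 23.4%, 23.3% and 23.6% rose and 26.8%, 26.4% and 25.6% fell. The oxidation genes had their highest mean at 15 min in 10 of 15 cases in eco1-W216G, and 4 peaked at 55 min. In scc2-D730V 7 of the 15 peaked at 15 min and 7 at 35 min. Whether the time of the peak differed between strains was not tested.

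The difference between the changes was tested gene by gene. At 15 min the change in eco1-W216G was called below that in WT for 19 of 41 genes and above it for 0, where 35.5% of all probe sets were called, 18.1% below and 17.4% above. At 35 min the counts were 23 and 0, beside 41.5% (21.7% and 19.8%), and at 55 min 20 and 0, beside 32.7% (17.1% and 15.6%). Oxidation genes made up 10, 12 and 11 of these and peroxins 9, 11 and 9. Of the 23 genes at 35 min 8 had been higher than WT at 0 min and 15 had not been called there. CRC1 rose 6.87-fold within eco1-W216G at 15 min, against 62.2-fold in WT, and POT1 3.86-fold, against 31-fold. Most of this difference lay at 0 min, where the mutant means were 9.56 for CRC1 and 9.36 for POT1, against 6.86 and 6.45 in WT. At 15 min the means were 12.34 and 11.31 in the mutant, against 12.82 and 11.40 in WT. Both genes were dim in WT at 0 min, so their WT folds are less certain. PEX18, which did not differ at 0 min beyond the spread and read near the deleted BAR1 there, rose 3.89-fold, against 12.7-fold. The count at 15 min was 12 without eco1-W216G replicate 3, and that at 55 min was 12 without WT replicate 2 and 13 without eco1-W216G replicate 1 or 3.

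**Figure D5:**
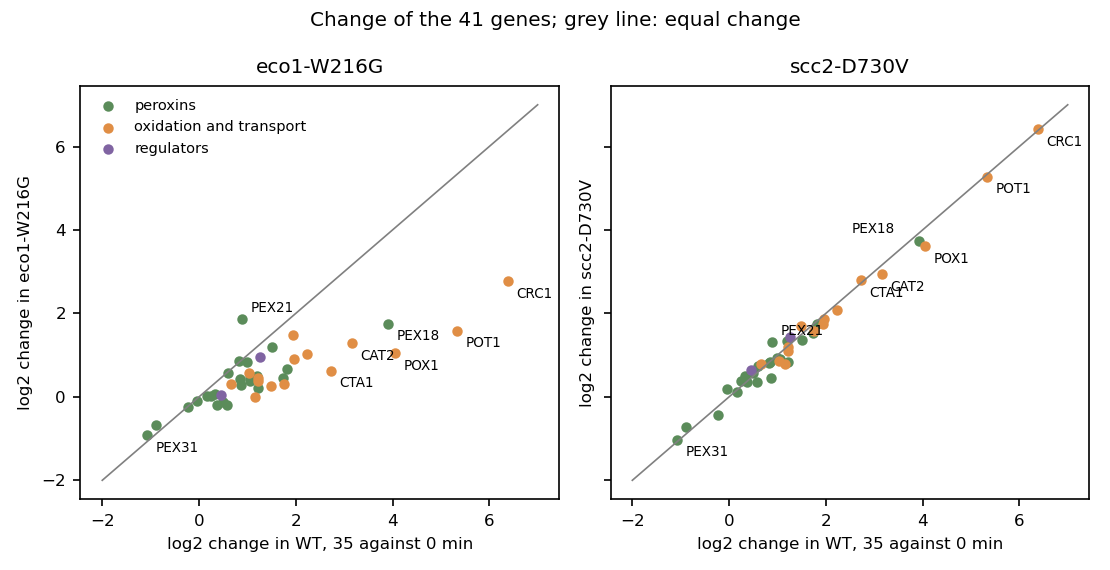
Log2 change from 0 to 35 min in WT (horizontal) against that in eco1-W216G (left panel) and scc2-D730V (right panel), each point one of the 41 genes and the grey line equal change. The change was called smaller than in WT for 23 of the 41 genes in eco1-W216G, where 21.7% of all probe sets were, and for 0 of the 41 in scc2-D730V, where 0% of all probe sets were.

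In scc2-D730V 0 of the 41 genes were called against WT at any of the 4 times, where limma called 0.0347% of all probe sets. At an unadjusted p under 0.05 there were 0, 0, 1 and 0 genes, beside 1.68%, 3%, 1.21% and 0.347% of all probe sets. The log2 ratios ran from -0.40 to 0.29 at 0 min, from -0.27 to 0.61 at 15 min, from -0.33 to 0.52 at 35 min and from -0.53 to 0.29 at 55 min. CTA1 was the lowest at 0, 35 and 55 min, and PEX21 the highest at 15, 35 and 55 min. The 95% interval of the ratio stayed within 1 log2 unit of 0 for 41, 40, 40 and 39 of the 41 genes. These calls and intervals come from a fit that did not match same-numbered cultures. Such arrays of scc2-D730V and WT deviated together with r up to 0.84, so the intervals can be too wide. POT1 read 6.93, 6.02 and 6.12 and CRC1 7.04, 7.12 and 6.61 at 0 min in scc2-D730V, within or next to the WT ranges of 6.08 to 6.79 and 6.57 to 7.09. PEX18 read 10.28, 9.27 and 9.42 at 15 min, around the WT values of 9.81, 9.41 and 9.60. Within scc2-D730V 33, 36 and 31 genes rose after the move and 2 fell, beside 71.2%, 70.3% and 68.7% of all probe sets called: 36.4%, 36.7% and 35.9% higher and 34.8%, 33.6% and 32.8% lower.

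Other genes of these and related pathways were counted from 3 further lists. The lists were chosen with earlier results of these data known, so their counts are a description. Of 14 genes of carbon metabolism that glucose represses, 13 exceeded their WT level in eco1-W216G at 0 min and 0 fell below it, with a median log2 ratio of 1.06, where 13.7% of all probe sets were higher and 11.9% lower. ADH2, the alcohol dehydrogenase that consumes ethanol, was 5.47-fold higher, and ACS1, an acetyl-CoA synthetase, 1.9-fold. At 15 min 3 of the 14 were higher and 4 lower (median -0.33), at 35 min 2 and 6 (-0.37) and at 55 min 4 and 2 (0.10), beside 22.7%, 26.6% and 21% of all probe sets lower and 18.8%, 19.9% and 16.8% higher. At 35 min ICL1, of the glyoxylate cycle, and SFC1, a mitochondrial carrier, were the 2 higher ones (log2 ratios 1.55 and 2.03).

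Of 20 other genes of peroxisomal enzymes and fatty acid metabolism, 9 were higher and 1 lower in eco1-W216G at 0 min (median 0.28). Of all probe sets 13.7% were higher and 11.9% lower there. ADR1, an activator of peroxisomal and glucose-repressed genes, was 4.16-fold higher, YAT1, the outer mitochondrial carnitine acetyltransferase, 3.23-fold, and STR3, a peroxisomal enzyme of methionine synthesis, 5.31-fold. At 15 min 4 of the 20 were higher and 5 lower (median -0.07), at 35 min 1 and 5 (-0.22) and at 55 min 1 and 4 (-0.09), so that the lower ones were near the share of all probe sets at these times. At 35 min YAT1 was the higher one (log2 ratio 1.66) and the peroxisomal malate dehydrogenase MDH3 lower by 0.74. Of 7 further genes of peroxisome biogenesis and inheritance, 1 was higher and 1 lower at 0 min. At each of 15, 35 and 55 min 0 were higher and 3 lower (medians -0.23, -0.35 and -0.35), beside 22.7%, 26.6% and 21% of all probe sets lower. ATG36, the receptor that takes peroxisomes to autophagy, had the largest change of the 3 lower genes at 35 min (log2 ratio -1.26), followed by DNM1 (-0.69) and INP1 (-0.53).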

How the data were processed

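RNA of 36 yeast samples was labelled from 300 ng of total RNA and hybridised to Affymetrix Yeast Genome 2.0 arrays. The authors summarised each probe set by RMA (version not stated in what was read here) and deposited a linear intensity for every array (17.3 to 43883). Log2 of it was taken here. All 36 columns were used, and 51 control probe sets were left out of 5814. Probe sets were named from the platform's annotation, and coordinates are those of RefSeq for R64.

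In R 4.3.3, limma 3.58.1 fitted 12 group means with 24 residual degrees of freedom, and p-values were adjusted within each contrast. The script was tested on simulated data. The members, lists and alternatives were chosen with earlier results of these data known. Values of every array are given for up to 4 members with the largest called rise and fall in eco1-W216G against WT at each time and in WT at 15 min, for related genes called in opposite directions, and for PIP2 and OAF1. At most 4 genes of each further list are named, by smallest p. The counts of these lists cover the 41 of their genes that were measured, and some genes are not reported here. Alternatives covered scaling, filters, weights, blocks, the adjustment and single cultures. The number of arrays limits the precision.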

Additional observations from a re-analysis of the deposited data

Results flagged for a closer look

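Of the 16 genes whose values on every array were given, 11 changed by different amounts in eco1-W216G and WT after the move to minimal medium, by limma's test of the difference between the changes. Most of the 16 had been chosen for their large differences between these strains, so the 11 are a description, and 35.5%, 41.5% and 32.7% of all probe sets were called at 15, 35 and 55 min. The following values are the log2 change of eco1-W216G minus that of WT. POT1 had differences of -3.01, -3.75 and -3.07 at 15, 35 and 55 min, CRC1 of -3.18, -3.62 and -3.28, POX1 of -2.33, -3.01 and -2.14, and CAT2 of -1.25, -1.88 and -1.56. These 4 had been higher than WT at 0 min.

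PEX18 had differences of -1.71, -2.16 and -1.86, CTA1 of -1.50, -2.09 and -1.09, and ECI1 of -0.77, -1.20 and -1.42. PXA1 was called at 15 and 35 min, with -1.02 and -1.17, and DCI1 at 35 and 55 min, with -1.23 and -0.78. These 5 had not been called against WT at 0 min. PEX30, which had been higher at 0 min, had differences of -0.87, -1.29 and -0.92, and PEX11 was called at 35 min alone, with -0.57. On leaving out 1 culture at a time, the calls of ECI1 at 15 min, PEX11 at 35 min, DCI1 and CTA1 at 55 min and PEX30 at 15 and 55 min were lost at least once, and the other calls named here were kept.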

How the results depend on the processing

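Of 420 recomputed counts of called genes, 415 stayed within 1.5 times the count reported. Some of these could hardly move. Averaging probe sets left the values of the 41 genes as they were, since each has a single probe set. Leaving out a culture of a strain outside the comparison changed only the estimate of spread. Of 210 recomputed class medians 17 moved by more than 1 SD of the replicates. Of 764 recomputed values of named genes 28 lost their call, and 0 changed direction with a call in either fit. With array weights 15 genes were called between eco1-W216G and WT at 0 min, in place of 9. Leaving out 1 of the 9 cultures at a time gave 6 to 12 genes for eco1-W216G against WT at 0 min. For the difference of the changes it gave 12 to 22 at 15 min, 20 to 24 at 35 min and 12 to 23 at 55 min. PEX31 at 0 min, PEX21 at 15 and 35 min, PEX11 at 15 min, CTA1 at 55 min and OAF1 in WT at 15 min lost their call in at least 1 alternative.

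Same-numbered cultures of a mutant and WT deviated together with r over 0.1 in 21 of 24 pairs. Most pairs thus shared more than a number, but the main fit did not match them, since not all did. For eco1-W216G and WT r ran from -0.14 to 0.47. For scc2-D730V and WT r ran from 0.007 to 0.84, so that the main fit can overstate the error of that comparison. With the replicate block 11, 24, 28 and 22 genes were called between eco1-W216G and WT at the 4 times, in place of 9, 22, 27 and 21. With a block for the number within each time, an alternative chosen after seeing the data, there were 13, 26, 30 and 23. Both blocks gave 0 of the 41 genes for scc2-D730V against WT at each time. At an unadjusted p under 0.05 by limma the block within each time gave 0, 1, 1 and 1. With culture as a random block (correlation 0.243) no count moved by over 1.5 times. Dim probe sets limit what can be read: leaving out the dimmest 25 percent removes PEX18, POX1, PEX17, PEX4, CTA1 and DCI1. It goes by the mean of all arrays and so keeps POT1 and CRC1, which were also dim at 0 min.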
